A study of Homo sapiens with 18 samples.

Results

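The Notch genes measured here were the receptors NOTCH1, NOTCH2 and NOTCH3, the ligands JAG1, JAG2, DLL1, DLL3 and DLL4, and the target genes HES1 and HEY1. They were chosen by gene symbol, with earlier results of these data known, so they are not a blind choice. All 10 were found among the 38055 genes in the whole transcriptome table. The cells were HCT116, an established line of epithelial cells from a human colorectal carcinoma, with no engineered allele and no added agent in either group. They were cultured in McCoy's 5A medium with fetal bovine serum and collected on day 3 at 50% confluency, where each cell still has free surface, or on day 5 at 250% confluency, where cells lie on top of each other. Each density had 3 RNAseq libraries of whole cell RNA depleted of ribosomal RNA, named biological replicates in the labels. Nothing states that they came from separate cultures, so p-values measure the spread between these libraries only. Day and density moved together in this design, and their effects cannot be told apart.

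Notch is a signal between touching cells. A Jagged (JAG) or Delta-like (DLL) ligand on the surface of a cell binds a Notch receptor on its neighbour, and the pull on the receptor exposes it to cleavage by an ADAM metalloprotease and then by γ-secretase. The freed intracellular part enters the nucleus, joins the DNA-binding protein RBPJ and a Mastermind-like (MAML) coactivator, and switches on genes such as HES1 and HEY1. In the intestine the pathway keeps crypt progenitor cells from taking secretory fates. The study grew cells to high density to examine Argonaute proteins and microRNA repression, and the present values give the mRNA levels of this contact-dependent pathway at the same densities.

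Of the 10 genes, 9 were higher on day 5 (limma, Benjamini-Hochberg adjusted p below 0.05 over all 20129 genes tested) and HEY1 was not called. Changes were common in this comparison, since 56.9% of all genes tested were called and 29.3% were called higher. All 9 were at least 2-fold higher on the log2(value + 1) scale, which held for 10.2% of all genes tested, and in all 9 the lowest day 5 library lay above the highest day 3 library, which held for 33.4%. The median log2 fold change of the 10 genes was 1.43, and that of all genes tested was 0.01. JAG1 and HES1 lay close to the 2-fold limit, and 7 to 9 genes passed it when each library was left out (7 without day 5 replicate 3, where both fell below it). DLL3 is counted among the 9, but it passed the filter on low values only through day 5, where it was high. Its call and its place are therefore not read as results. On the deposited values NOTCH3 rose most and JAG1 least of the 9, while after the correction described next DLL3 had the largest value and JAG2 the smallest. In bulk RNA, more cells that express a gene and more RNA per cell cannot be told apart.

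For most of these genes the size of the rise depended on a correction for base composition and length. Transcripts of NOTCH1, NOTCH3 and JAG2 had GC contents of 63.5%, 63.1% and 64.1%, higher than in 94.2%, 93.4% and 95.2% of the genes tested, and NOTCH2 was longer than 98.2% of them. DLL3 had the highest GC content of the 10 genes, 67.4%, above 98.8% of the genes tested. Its rise after the correction, 2.12, was the largest of the 10. The 95% interval of 0.91 to 3.33 held the 1.78 of NOTCH3, and DLL3 was near the limit of detection on day 3. DLL3 also entered the test only through day 5, so its place is not read as a result. When each library's trend over transcript GC content and then length was removed, an alternative chosen after the data were seen, the same 9 genes were called higher and none lower, against 50% of 19288 genes called and 24.1% called higher. Only 4 of them (NOTCH2, NOTCH3, DLL3 and HES1) were then at least 2-fold higher, against 6.5% of all genes, and the median of the 10 fell to 0.81. The part that GC content and length play in the uncorrected values was not tested beyond this correction, which also takes out any true change that follows them. Values after this correction are given beside each of the 10 genes.

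**Figure D1:**
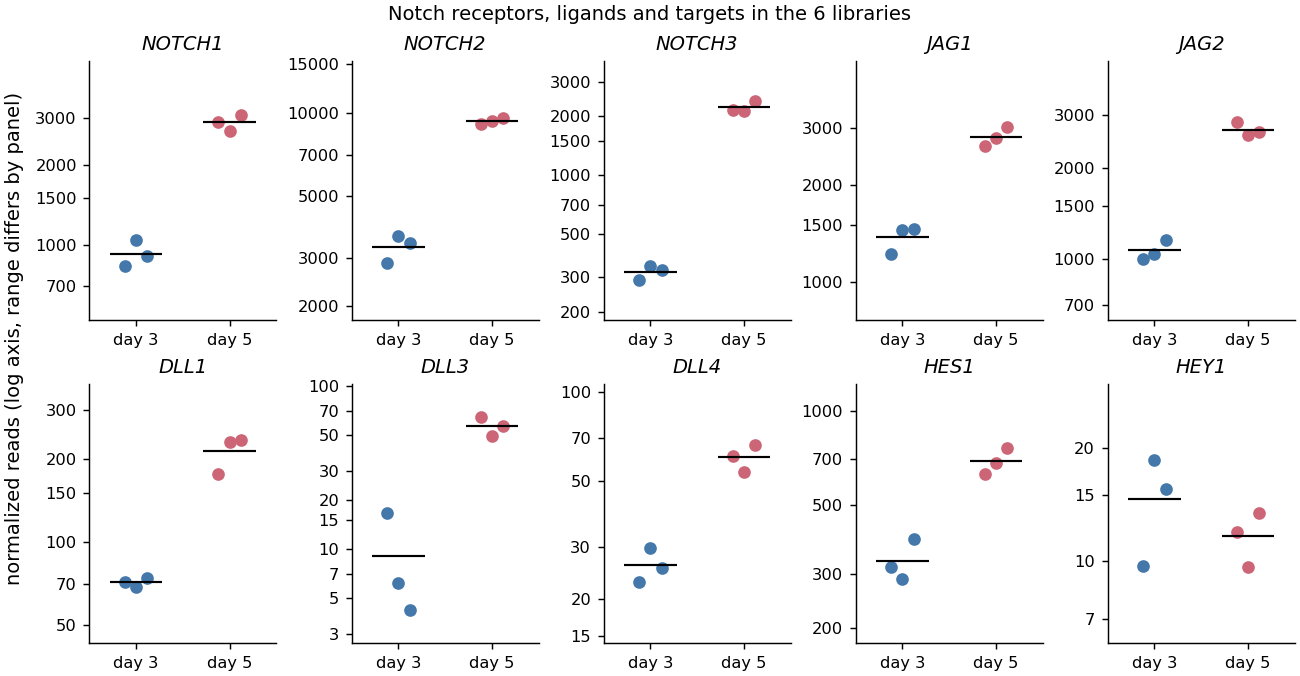
Normalized reads per gene (log axis, with a different range in each panel) in the 3 day 3 libraries (blue) and the 3 day 5 libraries (red); black lines are means. In 9 genes every red point lies above every blue point, and in HEY1 the points overlap.

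NOTCH1, NOTCH2 and NOTCH3 all rose, by unequal amounts. NOTCH1 (ENSG00000148400, GRCh38 chromosome 9 from 136494433 to 136546048, minus strand) is the receptor best known for its activating mutations in T-cell leukaemia. Its normalized reads were 831, 1037 and 903 in day 3 replicates 1 to 3 and 2905, 2689 and 3075 in day 5 replicates 1 to 3. The day 5 libraries lay close together, and the lowest of them was well above the highest day 3 library. The log2 fold change was 1.65 (SE 0.11, adjusted p = 0.000222, limma), a 3.13-fold rise. After the correction for GC content and length it was 0.59 (95% interval 0.33 to 0.85), a 1.51-fold rise.

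NOTCH2 (ENSG00000134250, chromosome 1 from 119911553 to 120100779, minus strand) encodes a receptor expressed with NOTCH1 in the intestinal epithelium. It was measured at 2863, 3590 and 3380 normalized reads on day 3 and 9079, 9349 and 9577 on day 5. Replicate 1 was the lowest library on each day, and the days did not overlap. NOTCH2 rose by a log2 fold change of 1.52 (SE 0.11, adjusted p = 0.000229, limma), or 1.01 after the correction. The NOTCH2NL genes carry near-identical copies of the beginning of NOTCH2 and were not analysed here, so reads shared with them make the NOTCH2 values uncertain.

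NOTCH3 (ENSG00000074181, chromosome 19 from 15159038 to 15200995, minus strand) encodes a receptor best known from vascular smooth muscle. Normalized reads were 291, 344 and 326 on day 3 and 2167, 2139 and 2397 on day 5. The 3 libraries of each day differed little beside the gap between the days. The log2 fold change of 2.80 (SE 0.10, 95% interval 2.56 to 3.04, adjusted p = 1.0e-04, limma) was a 6.97-fold rise and stood at place 56 of the 20129 genes tested, counted from the largest rise. After the correction it was 1.78 (95% interval 1.56 to 2.00), a 3.43-fold rise. The paper had singled out NOTCH3 from the same RNAseq series for its increase in mature mRNA at high density. The rise and place of NOTCH3 are therefore no separate result. NOTCH4, the receptor known from endothelium and outside the 10 genes, had 34.6 ± 14.7 (SD, n = 3) normalized reads on day 3 and 31.2 ± 0.218 on day 5 and was not called (log2 fold change -0.06, adjusted p = 0.86, limma), but it was called lower after the correction (-0.99, adjusted p = 0.0292).

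Among the ligands, the Jagged pair carried most of the reads. JAG1 (ENSG00000101384, chromosome 20 from 10637684 to 10673999, minus strand), the ligand whose loss causes Alagille syndrome, had 1224, 1446 and 1457 normalized reads on day 3 and 2631, 2796 and 3013 on day 5. Replicate 1 was again the lowest on both days. Its log2 fold change was 1.03 (SE 0.11, adjusted p = 0.000547, limma) and 0.70 after the correction.

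JAG2 (ENSG00000184916, chromosome 14 from 105140982 to 105168824, minus strand) encodes the other Jagged ligand. It had 1000, 1037 and 1157 normalized reads on day 3, and 2847, 2573 and 2649 on day 5. Unlike JAG1, it was highest in replicate 1 on day 5. JAG2 rose by a log2 fold change of 1.34 (SE 0.091, adjusted p = 0.000225, limma), which fell to 0.41 (95% interval 0.26 to 0.56) after the correction, the lowest corrected value of the 9 genes. Exons of JAG2 overlap those of ENSG00000257622 on the same strand, so part of its reads could belong to that gene.

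The Delta-like ligands were less abundant. DLL1 (ENSG00000198719, chromosome 6 from 170282206 to 170306565, minus strand), a ligand of intestinal secretory progenitors, had 71.1, 68.6 and 73.7 normalized reads on day 3 and 176, 229 and 233 on day 5. Day 3 was tight, and day 5 replicate 1 stood below the other 2. The log2 fold change was 1.56 (SE 0.13, adjusted p = 0.00032, limma) and 0.92 after the correction.

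DLL3 (ENSG00000090932, chromosome 19 from 39498895 to 39508481, plus strand) encodes an unusual ligand that is kept inside the cell and is known to inhibit Notch signalling. It was near the limit of detection on day 3, with 19, 10 and 3 reads behind normalized values of 16.7, 6.18 and 4.25. On day 5 it had 59, 46 and 55 reads, or 63.99, 49.30 and 56.95 normalized reads. Only day 3 replicate 1 reached the minimum value of 10 on that day, so DLL3 entered the test through day 5, where it was high. Its log2 fold change of 2.72 (SE 0.44, adjusted p = 0.00294, limma) had the widest interval of the 10 genes, 1.63 to 3.80, and was 2.12 after the correction.

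DLL4 (ENSG00000128917, chromosome 15 from 40929340 to 40939073, plus strand), a ligand of endothelium and of the intestinal crypt, had 22.8, 29.7 and 25.5 normalized reads on day 3 and 60.7, 53.6 and 66.3 on day 5. The days did not overlap, at 18 to 48 reads per library on day 3 and 50 to 64 on day 5. DLL4 rose by a log2 fold change of 1.18 (SE 0.13, adjusted p = 0.000706, limma), or 0.56 (95% interval 0.25 to 0.87) after the correction.

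**Figure D2:**
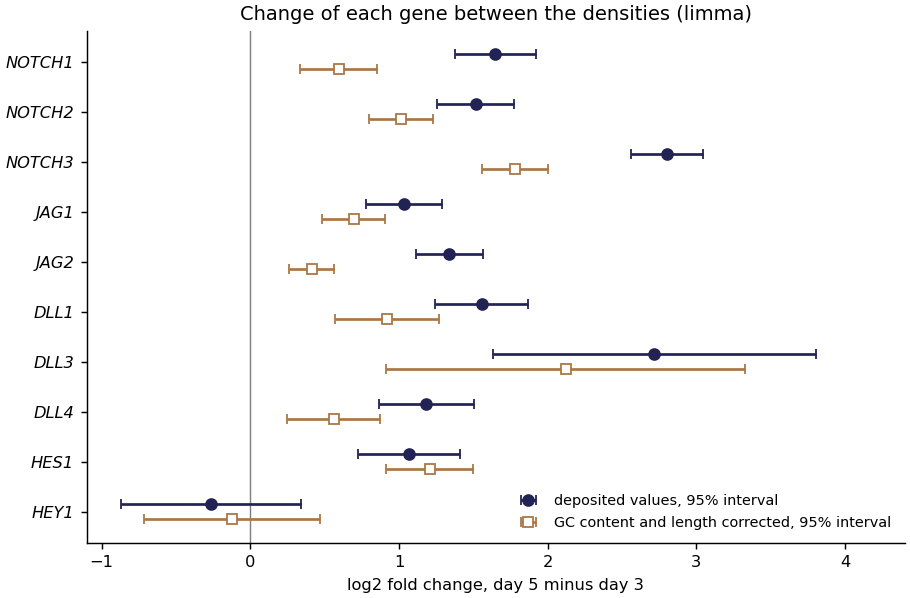
Log2 fold change of each gene, day 5 minus day 3, from limma on the deposited values (filled circles) and after the correction for GC content and length (open squares), each with its 95% interval. The intervals of 9 genes lie above 0 under both, NOTCH3 stays above NOTCH1 and NOTCH2 under both, and HEY1 spans 0 under both.

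HES1 (ENSG00000114315, chromosome 3 from 194136148 to 194138732, plus strand) encodes a transcriptional repressor that is the best known direct target of Notch in the intestine, where it represses the secretory factor ATOH1. It had 316, 287 and 387 normalized reads on day 3 and 628, 680 and 763 on day 5. The lowest day 5 library was above the highest day 3 library by a wide margin. The log2 fold change was 1.07 (SE 0.14, adjusted p = 0.00127, limma), a 2.10-fold rise. HES1 was the only gene of the 9 whose value was larger after the correction, at 1.21 (SE 0.12). Its transcript was near the middle of the genes tested in GC content (50.0%, higher than 55.7% of them) and longer than 35.3% of them. NOTCH2 and JAG1 had nearly the same GC content (49.4% and 49.6%) but smaller values after the correction, and were longer than 98.2% and 86.8% of the genes tested. Whether GC content or length moved these values was not tested.

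The region just before the HES1 start site is printed because it is the classic Notch response promoter. It covers the 250 bases upstream of the start, chr3:194135898-194136147 on the plus strand of GRCh38, from RefSeq. Capitals mark GTGGGAA, the letters bound by RBPJ, at position -85 to position -79 from the start site, and CGCGTG, the reverse complement of CACGCG (the class C site of HES and HEY repressors), at positions -120 to -115 and -47 to -42.
HES1 promoter: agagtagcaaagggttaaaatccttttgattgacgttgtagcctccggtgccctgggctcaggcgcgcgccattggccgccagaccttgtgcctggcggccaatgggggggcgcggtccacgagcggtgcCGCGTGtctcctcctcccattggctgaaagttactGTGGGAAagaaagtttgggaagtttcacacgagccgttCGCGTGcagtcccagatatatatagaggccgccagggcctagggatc

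The RefSeq promoter table held 7 of the 10 genes (NOTCH1, NOTCH2, NOTCH3, JAG1, JAG2, DLL4 and HES1). Searched on both strands of the same 250 bases, GTGGGAA was found in 5.43% of 35116 promoters and, among the 7, in HES1. CACGCG was found in 9.72% of all promoters and in 3 of the 7, HES1, JAG2 and DLL4, and the E-box CACGTG in 6.34% of all and in none of the 7. These are matches of letters, with no binding measured.

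HEY1 (ENSG00000164683, chromosome 8 from 79762371 to 79767857, minus strand) encodes a repressor related to HES1 and is another direct Notch target in many cells. It was barely detected, with 11, 30 and 11 reads in the day 3 libraries and 11, 9 and 13 in the day 5 libraries. Normalized reads were 9.66, 18.5 and 15.6 on day 3 and 11.9, 9.65 and 13.5 on day 5, and the days overlapped. The log2 fold change was -0.27 (SE 0.25, adjusted p = 0.395, limma), with a 95% interval of -0.87 to 0.34, so a rise of the size seen in HES1 lay outside it. Without day 3 replicate 1, the lowest library of that day, HEY1 was called lower at -0.52 (adjusted p = 0.0493). After the correction for GC content and length the log2 fold change was -0.12 (adjusted p = 0.692), not called.

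Levels of different genes were set side by side as RPKM, the recovered reads scaled to the length of the canonical transcript and to the total of the library. On day 3 the order of the mean levels was NOTCH2 (7.98), JAG1 (6.43), HES1 (5.81), JAG2 (5.12), NOTCH1 (2.69), NOTCH3 (1.03), DLL1 (0.524), DLL4 (0.211), HEY1 (0.184) and DLL3 (0.129). Neighbours whose libraries overlapped in that order were JAG1 and HES1, DLL4 and HEY1, and HEY1 and DLL3. On day 5 the order was NOTCH2 (23.8), JAG1 (13.8), JAG2 (13.6), HES1 (12.8), NOTCH1 (8.80), NOTCH3 (7.50), DLL1 (1.64), DLL3 (0.825), DLL4 (0.512) and HEY1 (0.155). There JAG1 and JAG2, and JAG2 and HES1, overlapped. The NOTCH3 level thus came close to that of NOTCH1 on day 5 without overlapping it, and the mean of DLL3 passed that of DLL4. The summed level of the 3 receptors was 11.7 ± 1.29 (SD, n = 3) on day 3 and 40.1 ± 0.943 on day 5, 3.43-fold higher, and that of the 5 ligands was 12.4 ± 0.436 and 30.4 ± 0.482, 2.44-fold higher (exact permutation p = 0.1 for each, the smallest that 3 against 3 libraries allow). After the correction for GC content and length these sums were 2.02-fold and 1.52-fold higher.

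The make-up of each family was compared as shares of its summed reads per kilobase within a library, which do not depend on the scaling between libraries. NOTCH3 held 9.02%, 8.57% and 8.78% of the receptor reads on day 3 and 18.5%, 18.3% and 19.2% on day 5. The share rose by 9.90 percentage points, with no overlap between the days (two-sided exact permutation p = 0.1, the smallest possible, and 0.16 after Benjamini-Hochberg adjustment over 8 genes). After the correction for GC content and length the difference was 6.91 points. Since the paper had picked NOTCH3 from this series for rising, its gain in share is no separate result. Which receptor lost share depended on the correction. On the deposited values NOTCH2 went from 68.2% ± 0.829 to 59.4% ± 1.27 and NOTCH1 from 22.98% ± 0.791 to 21.9% ± 0.911 (exact permutation p = 0.1 and p = 0.3). On the corrected values NOTCH2 stood at 63.9% ± 1.605 and 63.7% ± 1.29, and NOTCH1 went from 26.2% ± 1.36 to 19.5% ± 0.790 (exact permutation p = 0.9 and p = 0.1).

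Among the ligands, JAG2 held 41.9%, 39.7% and 42.2% of the reads on day 3 and 47.8%, 43.8% and 42.7% on day 5. The difference of 3.49 points (exact permutation p = 0.1, adjusted 0.16) rested on day 5 replicate 1, without which it was 1.97 points. It also turned to -5.72 points after the correction for GC content and length, so no direction is given for JAG2 within the ligands. The JAG1 share was 51.8% ± 1.93 on day 3 and 45.4% ± 2.24 on day 5, but 46.9% ± 2.09 and 49.9% ± 1.55 on the corrected values, so none is given for JAG1 either. DLL3 went from 1.05% ± 0.846 to 2.72% ± 0.344 and DLL1 from 4.22% ± 0.291 to 5.40% ± 0.785, and DLL4 stood at 1.70% ± 0.187 and 1.68% ± 0.134 (exact permutation p = 0.1, p = 0.2 and p = 0.9).

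**Figure D3:**
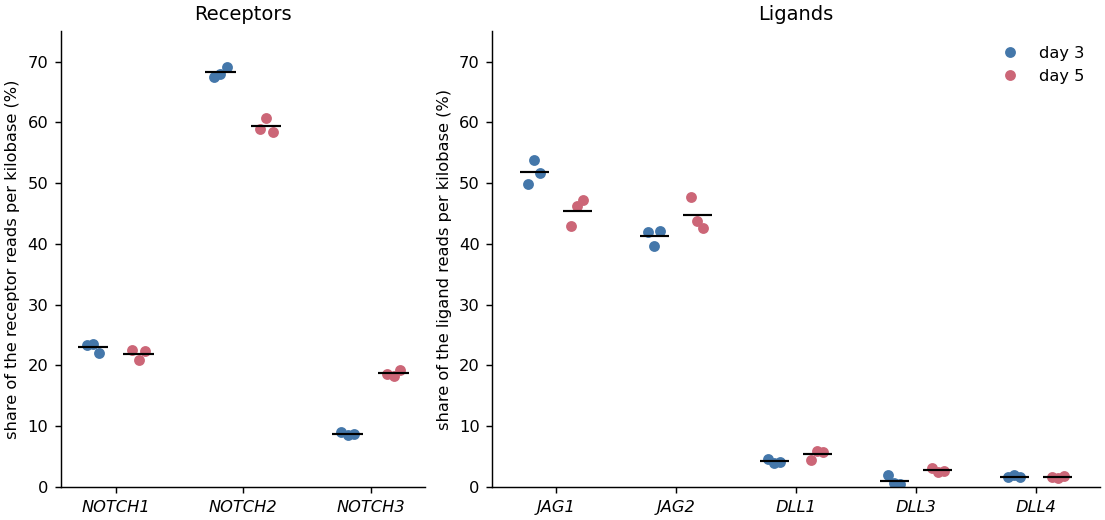
Share of each receptor in the summed receptor reads per kilobase and of each ligand in the summed ligand reads per kilobase, in percent, for the 3 day 3 libraries (blue) and the 3 day 5 libraries (red), with means as black lines. The NOTCH3 points lie between 8.57% and 9.02% on day 3 and between 18.3% and 19.2% on day 5.

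The other genes of the pathway were taken from lists by role. Of 65 listed, 61 were in the table and 53 passed the filter on low values. Of these 53, 35 were higher on day 5, 4 were lower and 14 were not called, with a median log2 fold change of 0.56. After the correction for GC content and length, 22 were higher, 8 lower and 23 not called, with a median of 0.16. The shares of all genes called higher were the 29.3% and 24.1% given above.

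Receptor maturation and sugar transfer covers the enzymes that cut and glycosylate Notch on its way to the surface. Of 6 genes, 5 were higher and 1 lower, but after the correction 1 was higher, 1 lower and 4 were not called. FURIN, the convertase that cleaves the receptor precursor, rose from 731 ± 103 to 2513 ± 114 normalized reads (log2 fold change 1.79, SE 0.12, adjusted p = 0.000227, limma; 1.03 after the correction). POGLUT1, which adds glucose to the EGF repeats, fell by 0.97 on the log2 scale and by 0.76 after the correction. The Fringe enzymes MFNG and LFNG, which add a sugar that alters the choice of ligand, rose by 0.77 and 0.60, but neither was called after the correction (adjusted p = 0.249 and 0.961, limma), and the calls of POFUT1 and RFNG, further enzymes of this list, were lost as well (adjusted p = 0.695 and 0.169).

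Of 8 genes of the receptor-cleaving metalloproteases and γ-secretase, 2 were higher, 1 was lower and 5 were not called, with a median log2 fold change of -0.02, where 56.9% of all genes were called. After the correction 2 were higher and 1 was lower, but the lower gene was a different one, PSEN2 (-0.27, adjusted p = 0.0238, limma), not called before at -0.06. ADAM10, the metalloprotease that makes the first cut after ligand binding, had 6623 and 6675 normalized reads on days 3 and 5 (log2 fold change 0.01, adjusted p = 0.907, limma). NCSTN, the subunit that recognises the cut receptor, rose by 1.12 and APH1B, a scaffold subunit, by 0.41, and both were also called after the correction, at 1.01 and 0.53. PSENEN, another subunit, fell by 0.67 but was not called after the correction (adjusted p = 0.211).

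Ubiquitin ligases and endocytic adaptors act on the ligand in the sending cell, where they create the pull on the receptor, and on the receptor in the receiving cell. Of 10 tested, 8 were higher and none lower, and after the correction 6 were higher and 1, the ligase MIB2, was lower (-0.54, adjusted p = 0.00553). DTX3, a Deltex protein, had the largest change, 2.55 (SE 0.52), from a low level of 6.57 normalized reads that entered the test through day 5. NEURL1, a Neuralized ligase of the ligands, rose by 1.18, NUMBL, related to the Notch inhibitor NUMB, by 1.02 and DTX4 by 0.97 (adjusted p between 0.000241 and 0.00701, limma). After the correction these 4 values were 2.17, 0.33, 0.38 and 0.41.

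In the nuclear complex, 6 of 7 genes were higher and 1 was lower, and all 7 calls were the same after the correction. The coactivator MAML3 rose by 1.85 (SE 0.22) and by 1.33 after the correction, the largest of this list both times. The acetyltransferases CREBBP and EP300 and the coactivator MAML1 rose by 1.16, 1.06 and 0.99, or 0.38, 0.60 and 0.41 after the correction. RBPJ, the DNA-binding partner, rose by 0.56, and by 0.69 after the correction. Corepressors and genes of receptor turnover had 8 of 12 higher and 1 lower, or 5 and 2 after the correction. The Groucho proteins TLE3, TLE1 and TLE2, which HES factors recruit, rose by 1.34, 1.17 and 1.07 (adjusted p between 0.00019 and 0.000462, limma), and by 0.57, 0.54 and 0.38 after the correction.

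Other HES and HEY genes and NRARP are read as further possible outputs of the pathway. Of 9, 5 could be tested and 4 of them were higher, or 2 higher and 1 lower after the correction. HES2 rose by 1.10 and HEYL, a relative of HEY1, by 0.96, or 0.52 and 0.48 after the correction. NRARP, a feedback inhibitor that binds the freed receptor, rose by 0.74 and HES4 by 0.31, but neither was called after the correction (adjusted p = 0.171 and 0.184, limma). HES6, not called at 0.06, was the gene called lower then (-0.38, adjusted p = 0.0197). HES5, a common Notch target in neural cells, and HEY2 were near 0, with means of 0.293 and 1.12 normalized reads on day 3 and 0.707 and 2.13 on day 5.

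**Figure D4:**
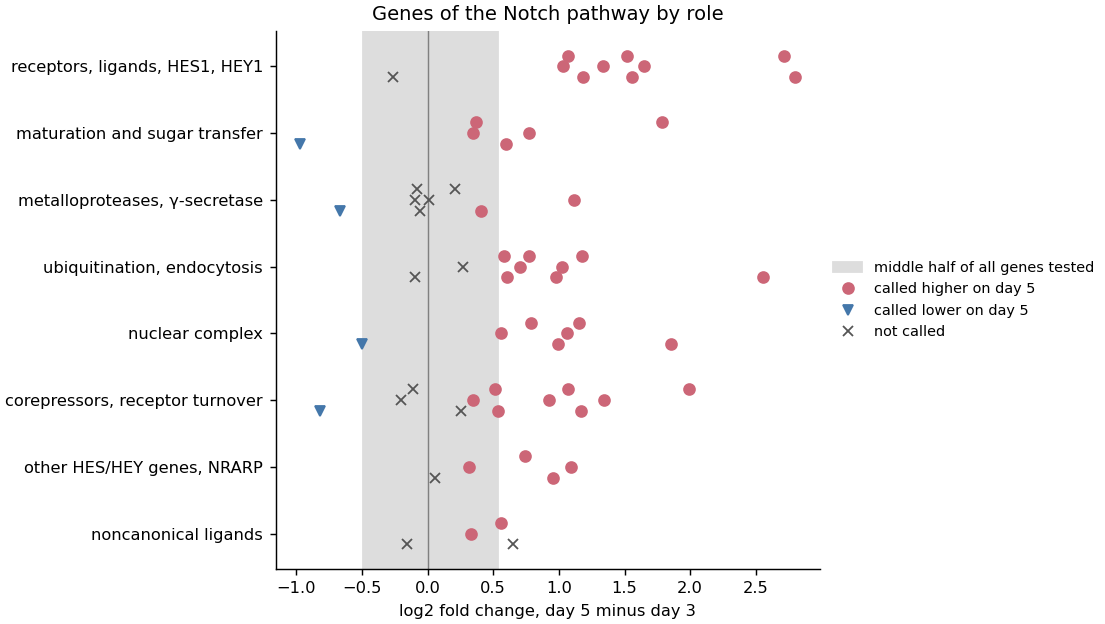
Log2 fold change of each tested gene, day 5 minus day 3, by role in the pathway; red circles were called higher, blue triangles lower and crosses not called, and the grey band runs between the quartiles of all genes tested (-0.49 and 0.53). All of the top group but HEY1 lie to the right of the band, and most genes of the metalloproteases and γ-secretase lie inside it (NOTCH4 is not drawn).

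Since the study concerned microRNAs, 7 of them were looked up for the seed matches they have in the 3′UTRs of the 10 genes. A microRNA pairs with its target mainly through its seed, bases 2 to 8, shown in capitals (mature sequences from RefSeq). miR-34a-5p is induced by p53 and known to target NOTCH1 and JAG1. The miR-200 family (miR-200b-3p, miR-200c-3p and miR-141-3p) marks epithelial cells. The others are abundant in many cell lines, and the paper had picked them from these small-RNAseq data for their rise at high density. miR-200b-3p and miR-200c-3p share a seed, and miR-141-3p differs from them in it.
miR-34a-5p: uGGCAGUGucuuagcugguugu
miR-200b-3p: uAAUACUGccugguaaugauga
miR-200c-3p: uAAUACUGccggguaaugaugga
miR-141-3p: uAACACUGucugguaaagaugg
miR-27a-3p: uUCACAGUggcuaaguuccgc
miR-181a-5p: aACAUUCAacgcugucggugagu
miR-21-5p: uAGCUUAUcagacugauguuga

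A match was 7 or 8 letters long: the complement of bases 2 to 8, of bases 2 to 7 followed by A, or both. miR-34a-5p had 11 matches in 7 of the 10 genes (NOTCH1, NOTCH2, NOTCH3, JAG1, DLL1, DLL4 and HEY1), more genes than any other of the 7. Since it is known to target NOTCH1 and JAG1, its place among the 7 partly follows from the choice. In 3′UTRs of like length (within 25%), a match to miR-34a-5p was held by 38.1% for NOTCH2, 26.5% for JAG1 and 25.1% for NOTCH1. It was held by 24.99% for NOTCH3, 18.9% for HEY1, 17.6% for DLL4 and 12.7% for DLL1, which had 3 of them. For the genes without a match it was 25.5% (JAG2), 10.5% (HES1) and 3.30% (DLL3). miR-141-3p matched 3 genes (NOTCH2, NOTCH3 and JAG1, with 50.4%, 24.1% and 26.5% of like 3′UTRs). miR-27a-3p also matched 3 (NOTCH3, JAG1 and DLL4, 27.7%, 30.6% and 19.7%). miR-200b-3p and miR-200c-3p matched the same 2 (NOTCH1 and JAG2, 22.6% and 23.6%). miR-181a-5p matched 2 (NOTCH2 and HEY1, 51.2% and 19.9%) and miR-21-5p 1 (JAG1, 13.1%). HES1 and DLL3, with 3′UTRs of 499 and 212 bases, held no match to any of the 7. The sites printed are the 8-letter matches of NOTCH1, NOTCH2, NOTCH3, JAG1 and DLL4 and the 3 matches of DLL1 (GENCODE release 44 canonical transcripts on GRCh38, minus strand except DLL4, with the matching letters in capitals).
NOTCH3 and miR-34a-5p, chr19:15159951-15159974: gctggggaagggccCACTGCCAac
DLL1 and miR-34a-5p, chr6:170282669-170282692: cccggccgcctgcggCACTGCCtt
DLL1 and miR-34a-5p, chr6:170282573-170282596: cgcataagaagcatgCACTGCCtg
DLL1 and miR-34a-5p, chr6:170282510-170282533: aattagaaacacaaaCACTGCCtt
NOTCH1 and miR-200b-3p or miR-200c-3p, chr9:136495326-136495349: ctttgtttcaggttCAGTATTAtg
NOTCH2 and miR-141-3p, chr1:119912000-119912023: catccatggcctggCAGTGTTAcc
NOTCH2 and miR-181a-5p, chr1:119912330-119912353: cctaaccaatacatTGAATGTAtg
DLL4 and miR-27a-3p, chr15:40938164-40938187: caggaaccggacagACTGTGAAct
JAG1 and miR-21-5p, chr20:10638255-10638278: tagggagtattctaATAAGCTAgt

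The levels of these microRNAs came from 3 small-RNAseq libraries on each of days 3, 5 and 7, on a log2 scale, and are given without a test. By the labels, day 7 had a higher confluency than day 5 and was the densest of the series. miR-34a-5p was at 8.40, 8.56 and 8.10 on day 3, 8.53, 8.71 and 8.68 on day 5, and 9.35, 9.31 and 9.28 on day 7. Days 3 and 5 overlapped, and day 7 was above both by more than the spread of its libraries. On day 5, the day of the mRNA values, mean differences from day 3 were 0.29 for miR-34a-5p, -0.72 for miR-200b-3p, 0.11 for miR-200c-3p, -0.01 for miR-141-3p, -0.04 for miR-27a-3p, 0.14 for miR-181a-5p and 0.38 for miR-21-5p. Day 5 did not overlap day 3 for miR-200b-3p, which was lower, and for miR-181a-5p and miR-21-5p, which were higher. Of the 179 miRNAs at a log2 value of at least 8 in every library, 38.5% did not overlap between days 3 and 5, and their median difference was 0.04. On day 7 the same miRNAs had a median difference of 0.37, and 6 of the 7 listed lay between 0.71 and 1.33 while miR-200b-3p was at -0.04. The day 7 rises of miR-21-5p, miR-27a-3p and miR-181a-5p are no separate result, since the paper picked these from the same data for rising. Pairing of these microRNAs with the mRNAs was not measured by these libraries.

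Depth and identity of the RNAseq libraries bear on all of these values. The libraries held 27470978 to 56689369 reads assigned to genes. Of 7 epithelial markers, all were in the table, 4 were higher on day 5 and 2 not called, and their summed normalized reads ranged from 30501 to 45254 on day 3 and from 67680 to 69931 on day 5. CDH1, the adhesion protein E-cadherin, rose by a log2 fold change of 2.63 (2.42 after the correction), while EPCAM was at 0.00 and called higher, at 0.38, after the correction only. VIL1, villin, stayed below 10 normalized reads in all libraries and KRT20 was low, so these markers of differentiated enterocytes were absent or weak. Of 8 markers of other cell types, 7 were in the table with a summed level of 22.9 to 34.2 on day 3 and 20.6 to 37.3 on day 5, and PTPRC, CD3E, CDH5 and DCN were at 0 in at least 1 library. COL3A1, ALB and CD14 had reads in every library. Their means were 10.7, 9.24 and 5.00 normalized reads on day 3 and 16.5, 7.15 and 1.41 on day 5. COL3A1 was tested and not called.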

How the data were processed

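RNAseq adapters carried molecular identifiers. Per the paper's methods, strand-specific mapping to ENSEMBL genes of hg38 was done in CLC Genomics Workbench. The values the authors deposited for each gene and library are a signal scaled between libraries, called normalized reads here. These values were whole multiples of 1 read in every library (100% within a tolerance of 0.1 read), so reads were recovered. The small-RNAseq values were deposited on a log2 scale per mature miRNA, after trimming, mapping and normalization by the authors, and their exact transform is not given in the sources used here. The submitters' processing notes name FastQC 0.11.8, MultiQC 1.7 and bcl2fastq. The depth of the small-RNAseq libraries is unknown from these values. Columns of the authors' own fold changes and p-values were not used, and whole transcriptome values of day 7 were not analysed here.

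limma 3.58.1 (R 4.3.3) was fitted to log2(value + 1) by day, for genes that reached 10 normalized reads in 3 or more of the 6 libraries, with Benjamini-Hochberg adjustment over all genes tested and a threshold of 0.05. A fold change on this scale understates the change of low genes. Shares and sums were compared by two-sided exact permutation over libraries. Lengths, GC content, loci and 3′UTRs came from GENCODE release 44 canonical transcripts on GRCh38, matched by gene identifier for 35597 of 38055 genes. GC content and length, for 95.8% of the genes tested, were corrected by lowess in each library. Same-numbered libraries of the 2 days did not deviate together, so numbers were not used as pairs. The genes and the lists were chosen with earlier results of these data known. All 10 genes are named, and from each other list up to 4 called genes by size of change, and genes near 0; some are not reported here. NOTCH4, ADAM10, PSEN2, POFUT1, RFNG, MIB2, HES6, RBPJ, VIL1, KRT20, EPCAM, COL3A1, ALB and CD14 were named after their values were seen.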

Additional observations from a re-analysis of the deposited data

How the results depend on the processing

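The count of the 10 genes called was 9 with library totals, without the filter, with a pseudocount of 0.1, with DESeq2 1.42.0 or edgeR 4.0.16 on the recovered reads, at 2-fold and after the correction for GC content and length. It was 8 of 8 tested at a minimum value of 50, which removes DLL3 and HEY1, and 9 to 10 when each library was left out. The count of 10, without day 3 replicate 1, includes HEY1 called lower. Shares of all genes called are known only for the main fit, the 2-fold limit and the correction. The other counts here cannot be set against such a share. Of the other pathway genes, 39 were called, 32 to 39 with each library left out, 44 by edgeR and 13 with a change of at least 2-fold. The correction for GC content and length left 30 called, 22 of them higher against 35 before, and turned the JAG2 share difference from 3.49 to -5.72 points; the cause was not tested. That difference was 1.97 to 4.53 points with each library left out, and the NOTCH3 share difference 9.62 to 10.1. With the replicate block, 9 of the 10 genes and 36 of the others were called and the share differences gave exact p = 0.25; the same-numbered libraries' deviations correlated at -0.01, 0.03 and 0.02, so the numbers are not read as pairs. HEY1 and DLL3, at 3 to 59 reads a library, are limited by depth.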

Other observations

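Genes that HES1 is known to hold down in the intestine, and their products, were mostly too low to test. Of 8 genes of the intestinal secretory lineage, 6 were in the table and 1 passed the filter. ATOH1, the factor that starts the secretory fate, had means of 0.499 normalized reads on day 3 and 0.719 on day 5, and INSM1 and CHGA, of enteroendocrine cells, were at 0.293 and 1.18 on day 3 and 0.361 and 1.80 on day 5. MUC2, the goblet cell mucin, had 6.23 and 9.59, and SPDEF, a goblet cell factor, 7.44 and 12.1. GFI1, a repressor that acts downstream of ATOH1, was the gene that could be tested, and rose from 124 to 240 normalized reads (log2 fold change 0.93, SE 0.19, adjusted p = 0.00747, limma; 0.65 after the correction for GC content and length).

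Among 6 noncanonical Notch ligands, 4 were tested and DNER (0.56) and MFAP2 (0.33) were called higher, neither of them after the correction (adjusted p = 0.151 and 0.193, limma). DLK1, an inhibitory relative of the ligands, had means of 0.473 and 1.79 normalized reads on days 3 and 5.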
